A study of Mus musculus with 15 samples.

Results

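Mitochondrial ribosomal proteins are the protein subunits of the ribosome that works inside mitochondria. They are encoded in the nucleus, made by cytosolic ribosomes and imported, and the finished mitochondrial ribosome makes the few respiratory chain subunits encoded by mitochondrial DNA. Liver is rich in mitochondria, and the subunits of the mitochondrial ribosome assemble in fixed proportions although their genes are scattered over the chromosomes. Members were taken as every gene whose mouse symbol is Mrpl or Mrps followed by a number, with the transcript of the highest mean count kept for each gene. This gave 78 genes with 89 transcripts, of 20101 genes with a symbol and 28167 RefSeq transcripts, and the 78 genes lie on 17 chromosomes.

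The measurement was ribosome profiling of whole liver, in which the mRNA fragments covered by ribosomes are sequenced, so that a count reflects both the amount of an mRNA and the ribosomes on each copy, which were not separated here. The mice were wild-type C57BL/6N males of 8 to 10 weeks, kept in a cycle of 12 h light and 12 h dark and then moved to constant darkness. Livers were taken from 24 h after that move, every 4 h from circadian time 0 (CT0) to CT24, with 2 mice at each of the 7 times and 14 libraries in all. No group carried a mutation or a drug, so the comparison was between times of day in unmanipulated animals. In whole tissue, fewer cells of a type and fewer ribosome footprints per cell cannot be told apart.

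Counts summed over transcripts ranged from 40593197 to 90458783 per library. These sums are not numbers of reads, since a read may be counted for more than 1 transcript: of 3081 genes with several tested transcripts, 1443 had transcripts with equal coding sequence counts in all 14 libraries. Shares of a library given here are shares of such sums. Hepatocyte markers such as Alb and Cps1 had reads in 14 of 14 libraries. Pancreatic acinar markers summed to between 0.159 and 61.5 CPM (counts in a library scaled to 1000000) in 13 libraries and to 3168 in CT20 replicate 2. All 7 of these markers passed the edgeR tests for a 24 h rhythm and for differences between time points described below. The shares of all transcripts called there therefore include calls carried mostly by 1 library. The number of such calls was not tested, and the edgeR count of members without this library is given at the end. The nonzero coding sequence counts of CT16 replicate 2 were all even (100%, where the other 13 libraries had 48.5% to 50.4%), and a second run of that library listed in the labels has no file of its own. Both libraries of the last time are named CT24 but carry a time field of CT00, and the name was used. Of the clock genes, 13 of 13 passed the edgeR test for a 24 h rhythm described below. That test takes CT0 and CT24 as the same hour and would give the same result with all times shifted. It therefore does not check these labels.

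The 78 members together took between 0.0571% and 0.116% of the counts of a library. All 78 had a mean of at least 10 counts and entered every test of levels, with mean counts per library from 90.1 for Mrps33 to 1733 for Mrpl14 and a median of 574.6. Of the 51 large subunit members, 30 have a bacterial relative and 21 occur only in mitochondrial ribosomes. Of the 26 small subunit members, the corresponding numbers are 16 and 10. The remaining member, Mrps36, carries the name of a ribosomal protein but is known as a component of the 2-oxoglutarate dehydrogenase complex. Mrps18a and Mrps30 are named after the small subunit and are known to sit in the large subunit, where they were counted.

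Ribosome density on the coding sequence was expressed as RPKM (coding sequence CPM per kilobase), with library sizes scaled by TMM (trimmed mean of M-values, which sets the bulk of transcripts equal between libraries). The median density of the members was 14.5, and the interquartile range ran from 7.98 to 21.3. All 78 members lay above 2.43, the median of the 11621 genes with a mean of at least 10 counts, at percentiles from 60.4 to 94.2 of that set. The span from the lowest to the highest member was 15.9-fold, and 53 of 78 members lay within 2-fold of the members' own median. This measure depends on the amount of the mRNA, on how often it is translated, on how fast ribosomes move along it and on which reads could be mapped, so differences between members are not differences in translation per mRNA.

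The 5 members with the highest coding sequence density were all large subunit proteins. Mrpl14, which lies at the interface between the subunits, had a density of 60.4 ± 9.31 RPKM (SD, n = 14 libraries). Mrpl34 followed with 53.4 ± 16.5, Mrpl33 with 44.0 ± 9.82, and Mrpl12 with 43.6 ± 8.67. Mrpl12 forms the stalk that recruits translation factors and is the ribosomal protein present in several copies per particle. Mrpl52, which has no bacterial relative, had 42.5 ± 9.89. Over the whole order of 78, neighbours differed by less than the larger of their SDs between libraries in 76 of 77 pairs. Neighbours in an ordered list lie close by construction, so this count bears on single ranks and not on whether members differ.

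At the other end, the 5 lowest densities were those of Mrps36 with 4.71 ± 1.02, Mrpl48 with 4.69 ± 1.03, Mrps9 with 4.63 ± 0.712, Mrps33 with 4.58 ± 1.35 and Mrpl19 with 3.79 ± 0.842. These 5 also overlapped within their SDs. Mrps9 and Mrpl19 have bacterial relatives, so low density was not limited to the mitochondria-specific proteins. By class, the median density was 15.9 for large subunit proteins with a bacterial relative and 12.8 for those without. For the small subunit the corresponding medians were 17.7 and 9.44. The plot of coding sequence density by member shows the classes interleaved below 32.1, the highest value of a small subunit member.

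**Figure D1:**
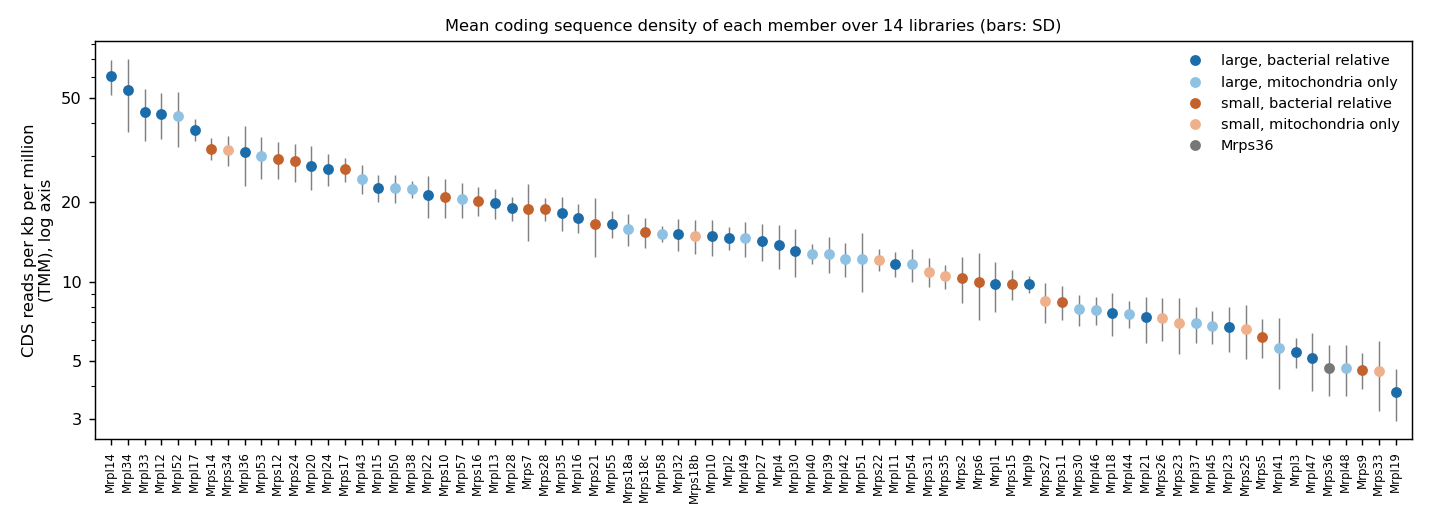
Mean coding sequence density of each of the 78 members (log axis, RPKM with TMM library sizes), ordered from highest to lowest, with bars for the SD over 14 libraries and colours for subunit and origin. Values run from 60.4 for Mrpl14 to 3.79 for Mrpl19. Neighbours, which the ordering itself places close, differ by less than the larger bar in 76 of 77 pairs.

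Members known for a particular task were spread over the range. Mrps12, a protein of the decoding centre, had a density of 29.2 ± 4.64, and Mrps7, in the head of the small subunit, had 18.96 ± 4.64. Mrps15, which binds the small subunit rRNA, had 9.78 ± 1.27. Among large subunit proteins, Mrpl11 at the base of the stalk had 11.7 ± 1.24 and Mrpl3, near the peptidyl transferase centre, had 5.38 ± 0.701.

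Mitochondria-specific proteins were also distributed over the range. Mrpl45, which holds the ribosome at the inner membrane, had 6.76 ± 0.946, and Mrpl44, which resembles RNase III, had 7.55 ± 0.892. Mrpl37 had 6.93 ± 1.08, Mrpl41 had 5.59 ± 1.69, and the pentatricopeptide repeat protein Mrps27 had 8.41 ± 1.46. Mrps30 had 7.85 ± 1.05. The related proteins Mrps18a, Mrps18b and Mrps18c, of which the first belongs to the large subunit, had 15.9 ± 2.25, 14.9 ± 2.20 and 15.4 ± 1.99, and these differed by less than the SD of each.

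Mrpl58 is a peptidyl-tRNA hydrolase that releases stalled mitochondrial ribosomes and was taken up into the large subunit. Its density was 15.2 ± 1.03, and its level was the steadiest of the 78 between libraries, with a coefficient of variation of 6.72%. In CPM on the same TMM library sizes, Mrpl58 had 9.02 and 8.49 in the CT0 pair, 8.77 and 7.83 in the CT4 pair, 7.78 and 7.75 in the CT8 pair, 9.44 and 7.84 in the CT12 pair, 8.20 and 7.77 in the CT16 pair, 7.84 and 8.69 in the CT20 pair, and 8.05 and 7.81 in the CT24 pair. The 14 values lay between 7.75 and 9.44, and no time of day stood apart from all the others. Over the members the coefficient of variation had a median of 15.2%, against 23.7% over all 17299 transcripts tested, and the largest was 30.0% for Mrpl34. The set of all transcripts includes mean counts down to 10, below the 90.1 of the lowest member. This comparison was not matched for counts, so it does not show that the members were steadier than transcripts of like counts.

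The median density of the large subunit members divided by that of the small subunit members was computed in each library. It was 1.22 ± 0.0817 (SD, n = 14), with the lowest value, 1.04, in CT20 replicate 2 and the highest, 1.35, in CT12 replicate 2. By time, the mean ran from 1.14 ± 0.141 at CT20 (SD, n = 2) to 1.31 ± 0.0591 at CT12. The low mean at CT20 came from replicate 2, the library with 3168 CPM of pancreatic acinar markers, while replicate 1 had 1.24. The ratio was 1.14 ± 0.0396 at CT8, where both libraries lay below both at CT12. No test was made on this ratio.

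The course over the day was examined first as the summed level of all members. On the TMM scale the 78 members together had 821 ± 42.9 CPM in the CT0 pair (SD, n = 2), 827 ± 8.52 in the CT4 pair, 764 ± 26.1 in the CT8 pair, 785 ± 20.4 in the CT12 pair, 783 ± 70.9 in the CT16 pair, 824 ± 41.9 in the CT20 pair and 759 ± 47.3 at CT24. The 14 libraries lay between 725 and 854, a ratio of 1.18, and the range within CT16 alone covered much of this span. The summed large subunit level ran from 524 ± 37.5 at CT24 to 572 ± 3.38 at CT4, and the summed small subunit level from 233 ± 9.40 at CT24 to 257 ± 19.2 at CT20.

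The same sum looked different when counts were divided by the library total. It was then 1112 ± 61.9 CPM in the CT0 pair, 814 ± 146 in the CT4 pair, 643 ± 102 in the CT8 pair, 640 ± 72.3 in the CT12 pair, 904 ± 284 in the CT16 pair, 745 ± 74.0 in the CT20 pair and 829 ± 0.0715 at CT24. The libraries spanned 571 to 1156, a ratio of 2.02. The TMM factor was lowest, 0.736, for CT12 replicate 2 and highest, 1.46, for CT0 replicate 1. Transcripts whose symbol is Mup and a number (the major urinary proteins, secreted in quantity by the liver) took 57.6% of the counts in the first of these libraries and 34.2% in the second, which were the highest and the lowest share of the 14. Their part in the difference between the scales was not tested. Levels of the members over time are therefore given on the TMM scale, and those on the library total are named as such.

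**Figure D2:**
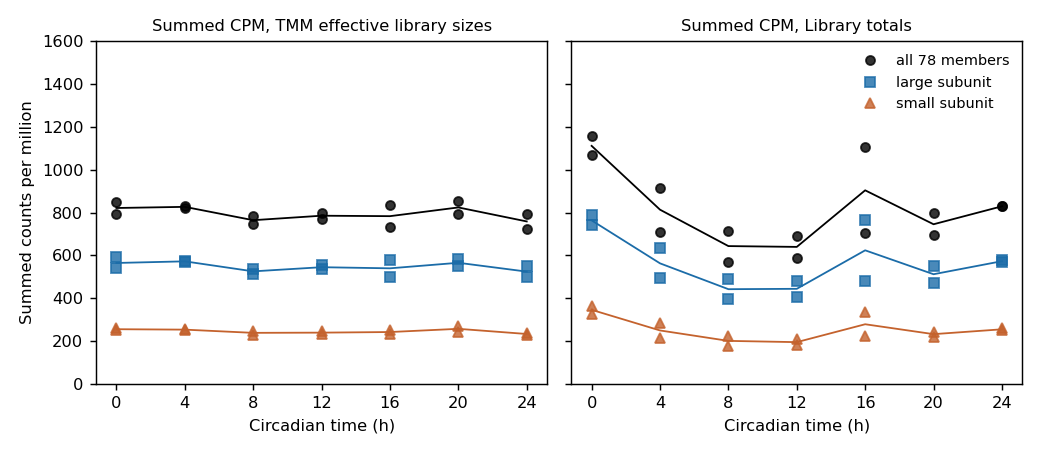
Summed CPM of all 78 members and of the large and small subunit members in each of the 14 libraries against circadian time, with TMM library sizes on the left and library totals on the right (lines join the means of 2 libraries). On the left the 78 members stay between 725 and 854 CPM, and on the right they run from 571 to 1156 CPM with the highest mean at CT0.

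Each member was then tested for a 24 h rhythm with edgeR, by the quasi-likelihood test of a 24 h cosine with Benjamini-Hochberg adjustment over all 17299 transcripts. No member passed an adjusted p of 0.05, whereas 1947 of all transcripts, 11.3%, did. At an unadjusted p under 0.05 there were 11 of 78 members, against 4224 transcripts or 24.4% of all. The DESeq2 likelihood ratio test called 1 member, Mrpl34, where it called 15.6% of the 16292 transcripts it gave an adjusted p. With the library total in place of TMM, edgeR called 2 members, Mrpl34 and Mrpl36, against 8.25% of all transcripts. A term for the prefix of the library code in the sample description gave 4 members, Mrpl24, Mrpl34, Mrpl47 and Mrps2, against 10.9% of all. This prefix is not the replicate number, and its meaning is not stated. Over the 10530 transcripts with mean counts in the members' range, edgeR called 13.2%.

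The fitted peak-to-trough difference, in log2 units, had a median of 0.24 in the members, against 0.44 over all transcripts tested and 0.37 over those in the same range of counts. It was 0.26 in large subunit proteins with a bacterial relative, 0.20 in those without, 0.24 in small subunit proteins with a bacterial relative and 0.21 in those without. The approximate upper 95% bound from a least-squares cosine fit was under 1 on the log2 scale, a 2-fold difference, for 71 of 78 members, with a median bound of 0.60. The other 7 were Mrpl34, Mrpl36, Mrpl47, Mrps6, Mrps25, Mrps33 and Mrps36, for which a larger rhythm lay within the interval.

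For comparison, the cytosolic ribosomal proteins of the same table, the Rpl and Rps genes, had a median peak-to-trough difference of 1.24, and 51 of 75 passed the same test. Their median level relative to the mean over time points was -0.72 at CT4, -0.66 at CT8, 0.48 at CT12 and 0.58 at CT16 on the log2 scale. The medians of the mitochondrial members at these times were 0.06, -0.03, 0.00 and -0.01. The nuclear subunits of the respiratory chain had a median peak-to-trough difference of 0.26, and 0 of 77 tested passed, while 1 passed the time point test described below. By JTK_CYCLE, also described below, 13 of the 77 were called with TMM and 31 on the library total, against 2 and 19 of the 78 mitochondrial members. Of the 75 cytosolic proteins, 42 were called with TMM and 19 on the library total, where their count was therefore like that of the mitochondrial members. Of all transcripts, JTK_CYCLE called 17.7% with TMM and 22.2% on the library total. No test was made between these families, whose members are not independent samples. The curves of the members by subunit and of the cytosolic proteins show the contrast in course on the TMM scale.

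**Figure D3:**
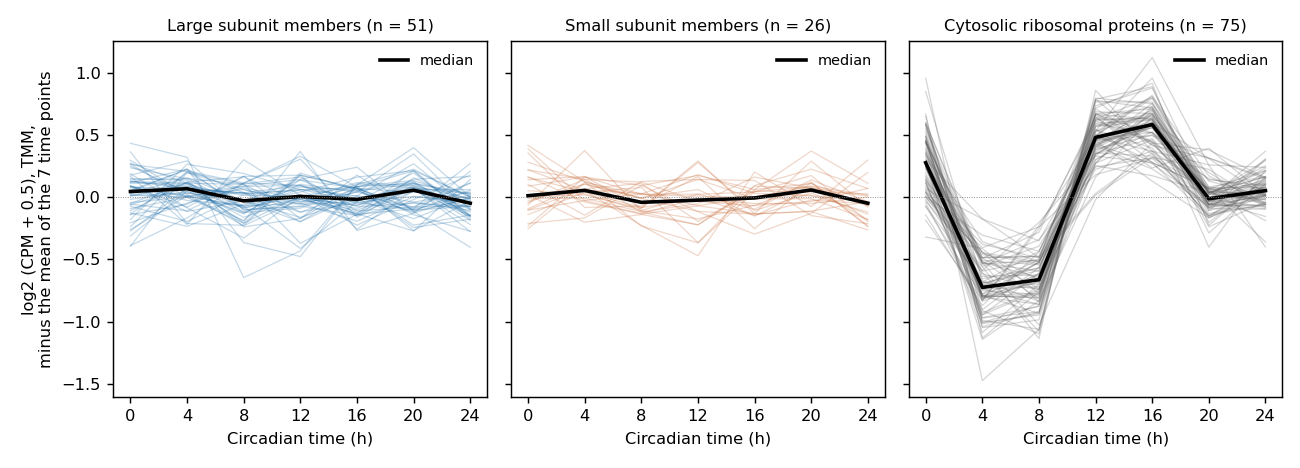
Level of each large subunit member, each small subunit member and each cytosolic ribosomal protein at 7 circadian times (log2 of CPM + 0.5 on the TMM scale, mean of 2 libraries, minus the mean over time points), with the median of each panel in black. The medians of the large and small subunit members stay between -0.05 and 0.07 on the log2 scale, while the cytosolic median runs from -0.72 at CT4 to 0.58 at CT16.

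**Figure D4:**
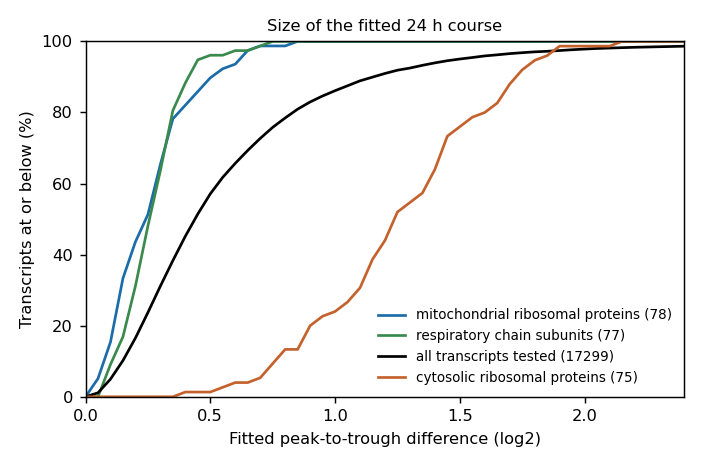
Share of transcripts (%) whose fitted peak-to-trough difference is at or below the value on the horizontal axis (log2), for the members, respiratory chain subunits, all transcripts tested and cytosolic ribosomal proteins. The medians read from the curves are 0.24, 0.26, 0.44 and 1.24.

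The members closest to the threshold are described here, chosen after their values were seen. Mrpl34, a small protein that binds the large subunit rRNA (chr8:71464926-71465753, GRCm38), had 18.4 and 22.7 CPM in the CT0 pair, 17.9 and 19.9 in the CT4 pair, 10.6 and 8.32 in the CT8 pair, 9.27 and 13.1 in the CT12 pair, 22.9 and 11.3 in the CT16 pair, 17.6 and 17.6 in the CT20 pair, and 14.5 and 15.6 in the CT24 pair. Both libraries at CT8 were below every library of CT0, CT4, CT20 and CT24, while the pair at CT16 was split. The fitted peak was at 22.1 ± 1.31 h (SE) with a peak-to-trough difference of 0.83, and the edgeR adjusted p was 0.072. Across 25 alternative settings this adjusted p ranged from 0.011 to 0.20, and it was under 0.05 in 4 of them.

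Mrps2, which joins the small subunit at the side facing the solvent (counted transcript at chr2:28468066-28471177), had 12.2 and 12.1 CPM in the CT0 pair, 9.73 and 9.96 in the CT4 pair, 7.28 and 7.91 in the CT8 pair, 5.96 and 7.90 in the CT12 pair, 10.7 and 8.09 in the CT16 pair, 10.1 and 9.04 in the CT20 pair, and 8.68 and 8.41 in the CT24 pair. The 2 libraries at CT0 were the highest of the 14, and those at CT24, the same hour of the next day, did not return to them. The fitted peak lay at 22.8 ± 1.32 h with a peak-to-trough difference of 0.53 and an edgeR adjusted p of 0.090, and 3 of 25 alternatives brought that p under 0.05 (range 0.040 to 0.25).

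Mrpl35, a large subunit protein (chr6:71812997-71823784), had its highest values at CT4 and CT8. It had 8.52 and 9.70 CPM in the CT0 pair, 12.1 and 13.0 in the CT4 pair, 11.8 and 11.9 in the CT8 pair, 10.5 and 11.2 in the CT12 pair, 11.5 and 10.4 in the CT16 pair, 8.56 and 10.2 in the CT20 pair, and 8.48 and 8.46 in the CT24 pair. All 4 libraries of CT4 and CT8 were above all others, by a small margin over CT16 replicate 1. The fitted peak was at 9.0 ± 1.01 h with a peak-to-trough difference of 0.44 and an edgeR adjusted p of 0.097, which stayed between 0.073 and 0.93 under the 25 alternatives.

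Other members with an unadjusted p under 0.05 were Mrpl36, Mrpl24, Mrpl22, Mrpl47, Mrps25, Mrps6, Mrps26 and Mrpl4, with edgeR adjusted p values from 0.12 to 0.20. Their fitted peaks did not fall at one time: that of Mrpl24 was at 16.8 h, that of Mrpl47 at 13.4 h, that of Mrpl36 at 21.8 h and that of Mrps26 at 3.9 h. Over all 78 members, fitted peaks lay between 0 and 6 h for 20, between 6 and 12 h for 18, between 12 and 18 h for 16 and between 18 and 24 h for 24.

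A difference over the day that need not have a cosine shape was tested with the 7 time points as a factor. In edgeR 0 of 78 members passed, against 1225 transcripts or 7.08% of all, and 6 members had an unadjusted p under 0.05, against 3131 transcripts or 18.1% of all. The smallest adjusted p was 0.063, again for Mrpl34. DESeq2 called 3 members, Mrpl30, Mrpl34 and Mrps2, where it called 14.2% of the transcripts given an adjusted p. With the library total in place of TMM, edgeR called 8 members, against 12.7% of all transcripts.

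The ratio of the highest to the lowest time point mean had a median of 1.36 over the members. It was under 1.5 for 58 of 78 and above 2 only for Mrpl34, with 2.17. The libraries of these 2 time points did not overlap in 68 of 78 members, a share no larger than the 87.6% of all transcripts for which the same was true. The time of the highest mean was CT0 for 21 members, CT4 for 17, CT12 for 14, CT20 for 13, CT8 and CT16 for 5 each and CT24 for 3.

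CT24 and CT0 are the same circadian hour on consecutive days. In edgeR no member differed between them, nor did any of the 17299 transcripts (0%), with the smallest adjusted p among members at 0.96. At an unadjusted p under 0.05 there were 7 members (8.97%) and 873 transcripts (5.05%), and DESeq2 called 0 members and 2 of 17299 transcripts. CT24 was lower than CT0 in 54 of 78 members, with a median log2 difference of -0.08 against 0.01 over all transcripts, of which 49.1% were lower. The cytosolic ribosomal proteins were lower in 56 of 75, with a median of -0.22, and the respiratory chain subunits in 52 of 77, with a median of -0.11. Single mitochondrial members ran from -0.65 for Mrps21 to 0.61 for Mrpl1.

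The JTK_CYCLE method, which ranks the values of a transcript against cosine-ordered templates and is the rhythm test of the study's methods, was run on CPM of the library total. It called 19 of 78 members at an adjusted P under 0.05, where it called 22.2% of all transcripts. With 1 library left out at a time the count moved between 5 without CT0 replicate 1, where 12.2% of all transcripts were called, and 35 without CT16 replicate 1, where 28% were. Of these 19, 17 had their peak at a lag of 0 h, the time at which the members' summed level on the library total was highest. The template for that lag ranks CT0 above CT24, so a fall between these 2 times adds to its score. On the library total the members' sum was 1112 CPM at CT0 and 829 at CT24, and the part of this fall in the calls was not tested. The lag was also 0 h for 64.8% of all transcripts called on that scale. Mrps2 had the smallest P, 0.0028, followed by Mrpl19, Mrpl36 and Mrps6 with 0.0079 each. After Benjamini-Hochberg adjustment over all transcripts, JTK_CYCLE called 0 members and 384 of all.

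With TMM library sizes JTK_CYCLE called 2 members, Mrps2 at a lag of 0 h and Mrps25 at 22 h, each with a P of 0.030, against 17.7% of all transcripts. Both were among the 19. Only 10.8% of all calls then had a lag of 0 h. Mrps25, a mitochondria-specific small subunit protein described here after its values were seen, had 3.24 and 3.83 CPM on the TMM scale in the CT0 pair, 3.19 and 2.73 in the CT4 pair, 3.11 and 3.10 in the CT8 pair, 2.18 and 3.83 in the CT12 pair, 3.82 and 3.47 in the CT16 pair, 5.47 and 3.91 in the CT20 pair, and 3.49 and 4.12 in the CT24 pair. Both CT20 libraries were above all libraries of CT0, CT4, CT8, CT12 and CT16, and the pair at CT12 was widely split. Its edgeR adjusted p was 0.17. Mrps27, Mrps7, Mrps30, Mrps15 and Mrpl3 were also among the 19 called on the library total, and with TMM their JTK_CYCLE P values were from 0.52 to 1.0.

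Whether members varied together was described by the Pearson correlation of log2(CPM + 0.5) over the 14 libraries, for 3003 pairs of members. The median was 0.07 on the TMM scale, with the middle 90% of pairs between -0.46 and 0.56. It was 0.00 over all pairs of transcripts in the same range of counts and 0.83 among the cytosolic ribosomal proteins. On the library total, where every pair shares the factors of the libraries, the median among members was 0.70. These values come from the same 14 libraries and carry no p. Within time points, the SD between the 2 mice had a median over the members of 0.20 on this scale, against 0.25 over all transcripts, a set not matched for counts.

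Other genes of the same pathway were taken from lists of factors with known roles. Of 5 ribosomal subunits with other names (Dap3, Ptcd3, Aurkaip1, Gadd45gip1 and Chchd1), 0 passed the edgeR rhythm test, with peak-to-trough differences from 0.06 to 0.19. Of 22 assembly factors 0 passed and 3 had an unadjusted p under 0.05, a threshold met by 24.4% of all transcripts, and of 9 tested genes of mitochondrial DNA transcription 0 passed and 0 had an unadjusted p under 0.05. Of 18 mitochondrial translation factors 1 passed, Lrpprc, which stabilises mitochondrial mRNAs. It had 65.7 ± 1.57 CPM at CT0 (SD, n = 2) and 91.7 ± 8.69 at CT12, with a fitted peak at 14.8 ± 0.64 h, a peak-to-trough difference of 0.52 and an edgeR adjusted p of 0.011.

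Of 17 mitochondrial aminoacyl-tRNA synthetases 1 passed, Ears2, which charges the tRNA for glutamate. It ran from 2.82 ± 0.293 CPM at CT12 to 5.45 ± 0.711 at CT20, with a fitted peak at 21.9 ± 0.83 h and an edgeR adjusted p of 0.024. Among 9 regulators of mitochondrial biogenesis, the coactivators Ppargc1a and Ppargc1b passed. Ppargc1a peaked at 12.0 ± 1.38 h with a peak-to-trough difference of 1.66 (adjusted p 0.040), and Ppargc1b at 8.8 ± 1.50 h with 1.30 (adjusted p 0.049). Both were low, with 2.68 ± 1.70 CPM for Ppargc1a at CT12 and 5.45 ± 1.91 for Ppargc1b at CT8. These counts stand beside the 11.3% of all transcripts that passed.

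Reads of the members were next divided by region. Of all their reads, 95.7% lay in the coding sequence, 3.85% in the 5′UTR and 0.443% in the 3′UTR. The 5′UTR share, taken as 5′UTR reads over 5′UTR and coding sequence reads, had a median of 0.242% over the members, against 3.63% over 11551 genes with a mean of at least 10 coding sequence reads. It was under 1% in 49 of 78 members, 15 had no 5′UTR read in any library, and in 6 (7.69%) the share of reads summed over libraries exceeded 20%, against 11.05% of all genes. In the files the 5′UTR of the members had a median length of 50 nt, and the 26 members with at most 30 nt, about the length of a footprint, all had a share under 1%.

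The largest shares among members with a mean of at least 10 5′UTR reads were those of Mrpl51, Mrpl41 and Mrpl18, 3 large subunit proteins. As a mean over the 14 libraries, which differs slightly from the summed share, it was 38.8% ± 8.84 (SD) for Mrpl51, 36.9% ± 7.45 for Mrpl41 and 36.4% ± 6.04 for Mrpl18. Mrpl30 with 34.0% ± 5.79, Mrps17 with 28.1% ± 4.09 and Mrps23 with 19.5% ± 8.64 followed, named after their values were seen. For Mrpl51 the share in the 2 libraries was 29.3% and 38.1% in the CT0 pair, 40.1% and 43.9% in the CT4 pair, 42.1% and 39.3% in the CT8 pair, 51.0% and 45.9% in the CT12 pair, 49.0% and 36.4% in the CT16 pair, 17.2% and 44.2% in the CT20 pair, and 30.1% and 36.9% in the CT24 pair. The pair at CT20 spanned nearly the whole range. Per nucleotide, the 5′UTR of Mrpl18 held 3.34 times the read density of its coding sequence, that of Mrpl37 2.79 times, that of Mrpl30 1.76 times, that of Mrpl51 1.69 times and that of Mrpl41 1.02 times. These are examples and not a ranking of all members.

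A rhythm of the log2 ratio of 5′UTR to coding sequence reads was tested with limma in the 23 members with a mean of at least 10 reads in each region. In limma 0 of the 23 passed and 0 had an unadjusted p under 0.05, while of 7640 transcripts 0 passed (0%) and 377, or 4.93%, had an unadjusted p under 0.05. The smallest unadjusted p values were those of Mrpl36, Mrps15 and Mrpl51, each with a limma adjusted p of 0.81. In Mrps15 the share went from 0% in CT20 replicate 1 to 27.8% in CT8 replicate 1, and the other library at CT8 had 8.70%.

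Sequence features of the transcripts were read from the GRCm38.p6 RefSeq annotation for the 60 members whose lengths there fit the files. A short reading frame upstream of the coding sequence, with its start and stop codon both inside the 5′UTR, was present in 9 of the 60, or 15.0%, against 36.7% of 17032 genes. It was also present in 18.2% of the cytosolic ribosomal proteins and 15.6% of the respiratory chain subunits. The 5′UTR share of these 9 had a median of 13.4%, with a median 5′UTR of 142 nt. For the 51 without such a frame the median share was 0.171%, and for the 17 of them with a 5′UTR over 60 nt it was 1.84%. Mrpl41, with a share among the highest, had no such frame, and Mrps11, with 2 of them, had a share of 2.50%, so reads and frames did not go together in every member. The frames that are at most 30 nt long, found in 6 of these members, are shown because ribosome reads lie in these 5′UTRs, with start and stop codons in capitals.
Mrpl51 (chr6:125192221-125192250, + strand): ATGgctcctcttactgtcactaccgtgTGA
Mrpl37 (chr4:107066820-107066837, - strand): ATGgcggcgtccaggTAG
Mrpl11 (chr19:4962329-4962349, + strand): ATGgccgcgcccagagcgTAG
Mrps11 (chr7:78783135-78783161, + strand): ATGaaccattccctttgggggaggTAG
Mrps11 (chr7:78783210-78783221, + strand): ATGgttttaTAG
Mrps15 (chr4:126046991-126047008, + strand): ATGgctgcgcccatgTAA
Mrpl4 (chr9:21002831-21002854, + strand): ATGgcggcggaatcgccttcgTGA
In Mrps15 a further frame of 6 nt lies inside the one shown and ends at the same stop codon. The coding sequence begins 104 nt after the frame of Mrpl51, 24 nt after that of Mrpl37, 43 nt after that of Mrpl11, 197 and 137 nt after those of Mrps11, 61 nt after that of Mrps15 and 86 nt after that of Mrpl4. Summed over the libraries, these 5′UTRs held 2650, 1151, 564, 104, 821 and 526 reads in the same order. The files give no positions within the 5′UTR, so the reads cannot be placed on the frames.

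**Figure D5:**
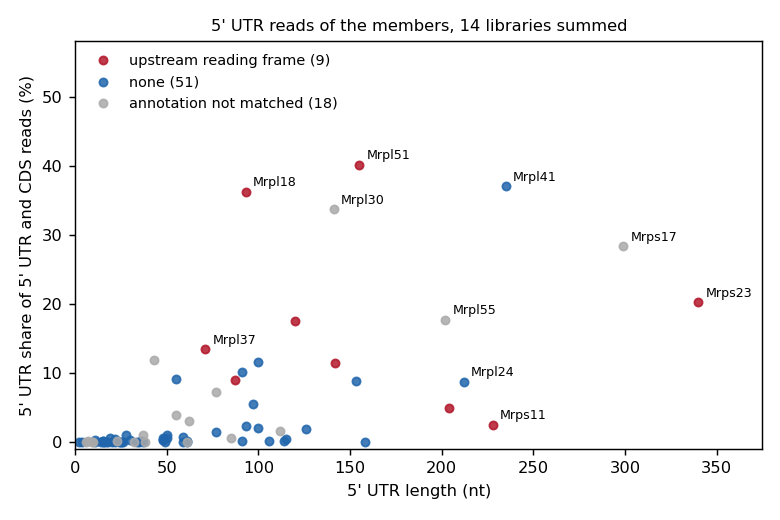
The 5′UTR share of the members' 5′UTR and coding sequence counts (%, 14 libraries summed) against the 5′UTR length in the files (nt) for the 78 members, with the 9 members that have an upstream reading frame in red, 51 without in blue and 18 whose annotation did not match in grey. Members with 5′UTRs of at most 30 nt lie under 1%, and Mrpl51, Mrpl41 and Mrpl18 lie highest.

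The annotated 5′UTRs of the 60 members had a median of 50 nt, against 132 nt over all genes and 72 nt in 66 cytosolic ribosomal proteins, and 35.0% were at most 30 nt long, against 15.3% of all genes. The start codon stood in a strong context, with a purine 3 bases before it and a G after it, in 65.0% of members and in 39.6% of all genes. Many cytosolic ribosomal protein mRNAs begin with a run of C and T, the feature known from transcripts whose translation responds to growth signals. A run of at least 5 such bases that began within the first 4 bases was found in 13 of 60 members (21.7%), 24 of 66 cytosolic ribosomal proteins (36.4%) and 11.8% of all genes. The first 20 bases of 4 members and 2 cytosolic genes are shown to set these starts side by side, with the run in capitals, and were chosen after values were seen.
Mrps2 (chr2:28468066-28468085, + strand): gagTCTCTgcaggatctctg
Mrps25 (chr6:92184004-92184023, - strand): aTTCCCggagccgcgctggt
Mrpl3 (chr9:105053268-105053287, + strand): gCTTTTCCTCCgcggagggc
Mrpl52 (chr14:54426909-54426928, + strand): caCTTCCggttcccttgctc
Rpl32 (chr6:115808724-115808743, - strand): CTTCTTCCTCggcgctgcct
Rpl30 (chr15:34443206-34443225, - strand): CTTCCTTTCTCgctccccgg
The annotated start may differ from the start used in liver. The run is 5 bases long in Mrps2, Mrps25 and Mrpl52 and 10 in Mrpl3, and 10 and 11 in Rpl32 and Rpl30. None of these 4 members passed the edgeR rhythm test, and their adjusted p values were from 0.090 to 0.50.

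Promoter windows of RefSeq genes (GRCm38.p6, 250 bases before to 50 bases after the start) were at hand for 69 members. Letters were searched on both strands and compared with all 32851 windows, which include noncoding genes and several starts per gene. The letters GCGCANGCG, the core bound by NRF1, a regulator of nuclear genes for mitochondria, were found in 16 of 69 members (23.2%) and in 6.25% of all windows. CCGGAAGT, of the ETS family that includes the regulator GABP, was in 17.4% and 3.89%, and AAGATGGCG, of YY1, in 11.6% and 1.40%. The letters CACGTG, the E-box bound by the clock factors CLOCK and BMAL1, were in 7.25% of members and 7.15% of all windows. TTATGNAA, the D-box of the DBP family, was in 1.45% and 3.38%, and TATAAA in 5.80% and 13.6%. A match in letters is not a binding site, and no binding was measured. The windows below show the NRF1 or YY1 letters, in capitals, at 4 members described above, of which Mrpl36 was chosen after its values were seen.
Mrpl12 (chr11:120484548-120484575, + strand): ttgtctccgCGCCTGCGCgtcgcaccgc
Mrpl44 (chr1:79775974-79776001, + strand): gaagcacttGCGCACGCGcagtacacta
Mrpl45 (chr11:97315669-97315696, + strand): ggtttcattGCGCACGCGcgaacccact
Mrpl36 (chr13:73330969-73330996, + strand): gtgaccttaCGCCATCTTtcttcctggc
The letters shown begin at position -80 from the annotated start in Mrpl12, -35 in Mrpl44, -38 in Mrpl45 and -31 in Mrpl36. In Mrpl12 and Mrpl36 they are those of the opposite strand. Mrpl45 holds further NRF1 matches at positions -120 and 17, and the promoter window of Mrpl36 also holds the E-box letters.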

How the data were processed

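Per the labels and the study's methods, reads were clipped and trimmed, rRNA reads were removed with Bowtie2 2.1.0.0, the rest were mapped to mm10 (the mouse build GRCm38) and handled with SAMtools 0.1.19.0, and reads of 26 to 32 nt were assigned to an A site. The authors deposited unnormalized counts for each RefSeq transcript and library, in 3 regions (both UTRs and CDS), beside region lengths in nt. Per the study's methods, density profiles used only reads with a single genomic position. How reads in several transcripts of 1 locus were counted is not given in the sources used here. Symbols came from RefSeq and matched 27840 of 28167 transcripts.

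Counts of the 3 regions were added. The 17299 transcripts whose mean reached 10 counts were tested in R 4.3.3 with edgeR 4.0.16 (TMM, quasi-likelihood F test, cosine and sine of 24 h), with limma 3.58.1 for log2 5′UTR over CDS reads (pseudocount 0.5), and with JTK_CYCLE written in Python 3.11.15 (lags every 2 h). DESeq2 1.42.0 was an alternative. All p-values were adjusted by Benjamini-Hochberg over all transcripts tested, except the JTK_CYCLE adjusted P, which is corrected for lags only. SEs of phases come from a least-squares cosine fit. Each library is 1 mouse, and 2 mice per time limit the precision. The edgeR cosine and time point tests, the DESeq2 cosine test, the limma ratio test and JTK_CYCLE were tried on simulated data. The comparison of CT24 with CT0 and the DESeq2 time point test were not. The simulated counts had the same relative spread for every transcript and no shift in the composition of the libraries.

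Members, gene lists and tests were chosen with earlier results of these data known. Members named were those past the edgeR threshold (none), the 5 highest and 5 lowest in CDS density, a list of members with known roles, and the 3 with the largest 5′UTR share. Other members were named after their values were seen, which is not said at every place. Replicate numbers did not pair the mice. Upstream frames, starts and promoter windows came from GRCm38.p6 RefSeq.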

Additional observations from a re-analysis of the deposited data

How the results depend on the processing

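With the library total in place of TMM, edgeR called 2 rhythmic members (Mrpl34 and Mrpl36) and 8 members that differed between time points (12.7% of all transcripts), and the median pairwise correlation was 0.696. DESeq2 called 1 (15.6%) and 3 (14.2%). A term for the prefix of the library code in the sample description gave 4 rhythmic members (Mrpl24, Mrpl34, Mrpl47 and Mrps2, against 10.9% of all). The meaning of this prefix, which is not the replicate number, is not stated. In the time point test, coding sequence reads alone gave 1 member (Mrpl30, against 6.84% of all), and count minimums of 1 and of 100 each gave 1 (Mrpl34, against 6.98% and 10.8%). JTK_CYCLE called 2 members with TMM (17.7%), 2 with DESeq2 size factors (17.7%) and 0 by the Benjamini-Hochberg q (2.22%). The cause of these changes was not tested.

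With each library left out in turn, edgeR called 0 to 2 rhythmic members. Beside the share of all transcripts called in the same run, it called 2 (10.8%) without CT16 replicate 1, 1 (9.74%) without CT24 replicate 1 and 1 (11.2%) without CT24 replicate 2. The time point test called 0 to 2, with 2 (7.16%) without CT12 replicate 2, 1 (6.01%) without CT16 replicate 1 and 1 (6.05%) without CT16 replicate 2. JTK_CYCLE on the library total called 5 to 35. It called 5 (12.2%) without CT0 replicate 1, 6 (14.1%) without CT0 replicate 2, 8 (13%) without CT8 replicate 2, 9 (15%) without CT12 replicate 1, 7 (12%) without CT12 replicate 2, 35 (28%) without CT16 replicate 1, 11 (17.5%) without CT16 replicate 2 and 9 (18%) without CT24 replicate 2. CT24 against CT0 and the 5′UTR ratio gave 0 members throughout. Median density stayed between 14.2 and 14.6, the ratio of large to small subunit density between 1.21 and 1.24, and the correlation between 0.058 and 0.083. Without CT20 replicate 2, which held the pancreatic markers, edgeR called 0 rhythmic members. The share of all transcripts called in that run is not given, so this 0 does not show whether the members differ from them.

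Samples of the same replicate number did not deviate together (correlations from -0.058 to 0.160, 4 of 21 over 0.1). With the replicate block edgeR called 0 rhythmic members and 0 that differed between time points. The shares of all transcripts called with this block are not given, so these counts do not set the members apart from them. With 2 mice per time point, the upper bound of the peak-to-trough difference exceeded 2-fold for 7 members, in which a rhythm of that size was not excluded.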
